A study of Homo sapiens with 4 samples.

Results

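The 10 genes described here encode the subunits of NF-kB, an inhibitor and feedback regulators of that pathway, and genes induced by it. They are RELA, RELB, REL, NFKB1, NFKB2, NFKBIA, TNFAIP3, BIRC3, TNFAIP2 and CXCL8, and they were taken by gene symbol from the 58736 features listed for each library. All 10 were found, and all 10 passed the filter on low values, which kept 16362 features. The set was chosen by role in the pathway with the FPKM values and calls of this comparison already known, so their own differences are given as descriptions and no test is drawn from them.

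NF-kB is a family of dimeric transcription factors held inactive in the cytoplasm by inhibitors such as IκBα, the product of NFKBIA. Signals from cytokine receptors or sensors activate IκB kinases, the inhibitor is degraded, and dimers such as RELA with the NFKB1 product enter the nucleus. The dimers switch on chemokines such as CXCL8 together with their own brakes, NFKBIA and TNFAIP3. In a slower branch, the kinase encoded by MAP3K14 promotes processing of the NFKB2 product, which pairs mainly with RELB.

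RNA was sequenced from HEK293A, an established line of epithelial cells from human embryonic kidney, in 2 groups of 2 libraries. One group received the DNA probe named NT1_hp2 (replicates 2 and 3) and the other a negative control (replicates 1 and 3). Every well of both groups was given 1 µg of plasmid for FEN1, a nuclease that trims DNA flaps during replication, and 500 pmol of DNA probes 48 h later, and RNA was prepared after 72 h. The labels name neither the gene targeted by NT1_hp2 nor the negative control probe, and do not say whether replicates were separate cultures, so the spread between libraries may be technical. The deposited values are taken as FPKM, reads adjusted for gene length and for a depth set per library. Comparisons between genes rest on the length used. NT1_hp2 replicates 2 and 3 held 13647614 and 13602537 recovered reads, and negative control replicates 1 and 3 held 14908687 and 12506203. The depth that the values imply was 1.03 and 1.04 times the recovered reads in NT1_hp2. In the negative control it was 0.966 and 1.00 times, so it was not the plain read total. In a transcript of 1 kilobase, 3 reads are worth 0.208 to 0.239 FPKM, a floor that covers counting error only.

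The cell label was checked against 8 marker genes. The epithelial keratin KRT8 was at 84.2 and 86.6 FPKM in NT1_hp2 and at 112 and 99.0 FPKM in the negative control. KRT18 was called lower, with 54.4 and 55.4 FPKM in NT1_hp2 and 77.7 and 68.8 FPKM in the negative control (log2 difference −0.41, limma-trend adjusted p = 0.0440), and KRT19, at 21.2 and 19.1 FPKM in NT1_hp2 and 25.5 and 24.2 FPKM in the negative control, was not called. VIM was above 98 FPKM in all 4 libraries, whereas EPCAM, CDH1 and PAX2 were below 0.6 FPKM throughout. The lymphocyte marker PTPRC was listed at 0 in all 4 libraries. The summed level of 5 monocyte and macrophage markers was 0.991 and 0.696 FPKM in NT1_hp2 and 0.771 and 0.949 FPKM in the negative control, with none of the 5 passing the filter. That of 4 endothelial markers was 0.398 and 0.462 FPKM in NT1_hp2 and 0.389 and 0.349 FPKM in the negative control.

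The promoters of these genes are shown because NF-kB regulates several of its own genes through kappaB sites near their starts. RefSeq promoter windows (GRCh38.p14), which run from 250 bases before to 50 bases after an annotated start, were found for 9 of the 10 genes, with 13 windows in all, and none was found for RELB. The CXCL8 window on the plus strand, chr4:73740319-73740618, is given whole. Capitals mark matches, on either strand, to the kappaB consensus decamer or to the letters GGAATTTCC.
CXCL8: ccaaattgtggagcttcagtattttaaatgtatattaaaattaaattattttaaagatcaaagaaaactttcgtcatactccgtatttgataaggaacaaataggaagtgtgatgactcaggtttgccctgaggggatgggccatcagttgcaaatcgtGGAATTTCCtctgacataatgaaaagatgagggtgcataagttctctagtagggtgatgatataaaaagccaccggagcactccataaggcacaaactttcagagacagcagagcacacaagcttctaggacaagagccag

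The marked letters in CXCL8 began 91 bases before its annotated start. The letters TGACTCA, to which AP-1 factors bind, began 137 bases before it, and no other of the 9 genes held them. For the other genes, each match is shown with 20 bases on each side, apart from a further one in NFKB2, read along the gene's own strand. The stretches lie at chr6:137867172-137867233 for TNFAIP3, chr11:102317265-102317314 and chr11:102317329-102317378 for BIRC3, chr14:35404801-35404850 (minus strand) for NFKBIA, chr4:102501290-102501339 for NFKB1, chr2:60881507-60881557 for REL, and chr10:102394451-102394529 and chr10:102395664-102395713 for NFKB2.
TNFAIP3: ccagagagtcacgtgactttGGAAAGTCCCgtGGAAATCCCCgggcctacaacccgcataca
BIRC3, far: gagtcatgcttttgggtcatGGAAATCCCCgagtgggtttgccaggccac
BIRC3, near: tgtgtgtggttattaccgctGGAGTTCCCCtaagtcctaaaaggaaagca
NFKBIA: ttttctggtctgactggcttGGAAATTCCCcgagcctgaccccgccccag
NFKB1: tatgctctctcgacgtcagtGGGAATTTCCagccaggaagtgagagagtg
REL: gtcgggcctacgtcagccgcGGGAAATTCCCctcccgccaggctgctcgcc
NFKB2, second start: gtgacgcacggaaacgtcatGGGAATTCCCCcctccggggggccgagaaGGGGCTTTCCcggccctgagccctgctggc
NFKB2, last start: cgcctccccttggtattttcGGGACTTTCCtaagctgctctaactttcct

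The decamer was present in at least one window of 6 genes, namely TNFAIP3, BIRC3, NFKBIA, NFKB1, NFKB2 and REL, and was not found in the windows of CXCL8, RELA and TNFAIP2. Of the 13 windows 7 held it, against 11.3% of all 35116 promoters. The letters GGAATTTCC, which overlap the decamer in NFKBIA, NFKB1 and REL, occurred in 4 of the 13 windows and in 0.461% of all promoters. A looser form, GGG and CC with any 5 bases between them, occurred in all 13 windows and in 58.7% of all promoters. The TNFAIP2 and RELA windows thus held only this looser form. The genes were chosen by role in this pathway, so nothing is read from the contrast with all promoters. A match is a description of letters and says nothing of binding in these cells.

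The mRNA levels of the 10 genes differed most between the groups for CXCL8, and differed little for RELA, NFKB1 and NFKBIA. CXCL8, TNFAIP3, RELB, REL, BIRC3 and NFKB2 were higher in both NT1_hp2 libraries than in both negative control libraries, TNFAIP2 and RELA were lower in both, and NFKB1 and NFKBIA overlapped. Of all tested genes, 32.0% lay above without overlap 34.8% lay below, and 66.8% did either. In limma-trend over all tested genes, 3 of the 10 were called higher (CXCL8, TNFAIP3 and RELB) and 1 lower (TNFAIP2), at a Benjamini-Hochberg adjusted p below 0.05. The background of such calls was 5.00% of tested genes higher and 8.92% lower, and 13.9% in either direction. Nothing is read from the count, since the genes were proposed from this contrast. The median log2 difference was 0.34 over the 10 genes and −0.01 over all tested genes. In bulk RNA, a change in the number of cells that hold a transcript and a change in its amount per cell cannot be told apart.

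**Figure D1:**
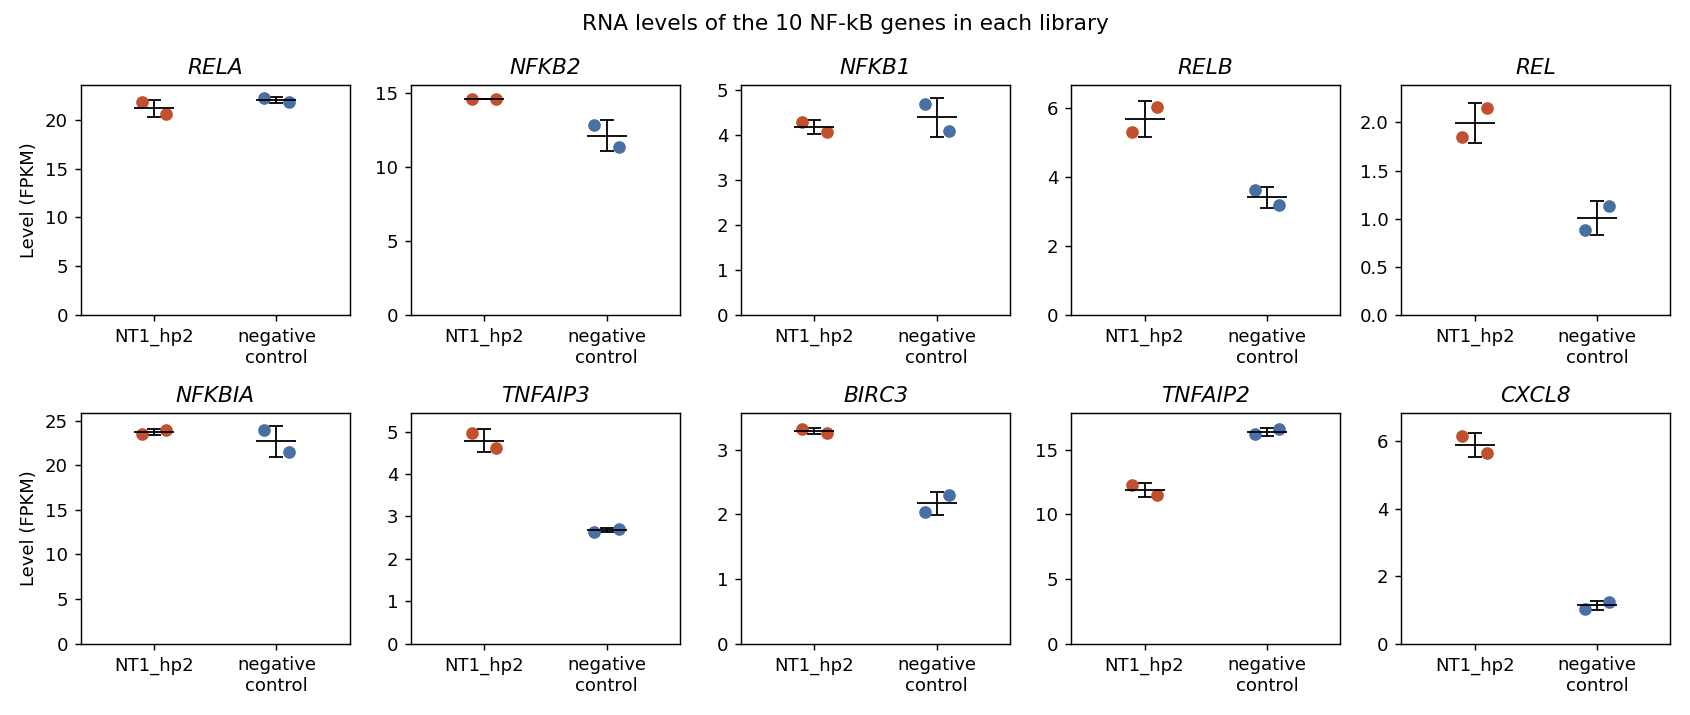
Level of each gene in FPKM (vertical axis, from 0) in NT1_hp2 and negative control libraries. Points are libraries, long bars are means and whiskers are SD (n = 2 each). CXCL8 is near 6 FPKM in NT1_hp2 and near 1 in the negative control, while the points of NFKBIA and NFKB1 overlap.

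Base composition moved with these values. Genes in the highest tertile of GC content had a median log2 difference of −0.24, those in the middle tertile 0.00 and those in the lowest tertile 0.18 (5450 genes each). RELB, NFKB2, TNFAIP2, RELA and NFKBIA fell in the highest tertile, TNFAIP3 and NFKB1 in the middle one, and CXCL8, REL and BIRC3 in the lowest. Values after removal of smooth trends with length and GC content are therefore given beside those as deposited. The part of base composition in the differences was not tested.

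Among the subunits, RELA, which carries a strong activation domain and is the main subunit of the rapid branch, was the most abundant mRNA. RELA (ENSG00000173039, chromosome 11, 65653596 to 65663094, GRCh38) had 21.8 and 20.6 FPKM in NT1_hp2 replicates 2 and 3, against 22.2 and 21.8 FPKM in negative control replicates 1 and 3. The NT1_hp2 libraries were just below both controls. The log2 difference was −0.05 (SE 0.0639), and it was 0.02 with scaling by library totals and 0.16 after the length and GC correction, so its direction depended on scaling.

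NFKB2, which encodes the precursor p100 and its processed form p52, was next. NFKB2 (ENSG00000077150, chromosome 10, 102394110 to 102402529) had 14.6 and 14.6 FPKM in NT1_hp2, against 12.8 and 11.4 FPKM in the negative control. Both NT1_hp2 libraries were above both controls, and the controls differed from each other by 1.48 FPKM. The log2 difference was 0.25 (SE 0.0789) and was not called, and it was 0.55 after the length and GC correction, where it was called. Omission of negative control replicate 3 gave 0.17 and omission of replicate 1 gave 0.33.

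NFKB1 encodes the corresponding precursor p105 and its processed form p50. NFKB1 (ENSG00000109320, chromosome 4, 102501329 to 102617302) had 4.30 and 4.08 FPKM in NT1_hp2, against 4.71 and 4.10 FPKM in the negative control. The groups overlapped, with a log2 difference of −0.06 (SE 0.0945) that was 0.01 with library totals.

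RELB, the usual partner of p52, was above NFKB1 in both NT1_hp2 libraries and below it in both negative control libraries. RELB (ENSG00000104856, chromosome 19, 45001430 to 45038198) had 5.30 and 6.03 FPKM in NT1_hp2, against 3.62 and 3.20 FPKM in the negative control. Both NT1_hp2 libraries were above both controls, by more than the gap within either group. The log2 difference was 0.60 (SE 0.101), and 0.96 after the length and GC correction. These levels rested on 227 and 260 reads in NT1_hp2 and on 158 and 122 reads in the negative control.

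REL encodes c-Rel, best known in lymphocytes, and was the least abundant of the 5 subunit mRNAs in every library. REL (ENSG00000162924, chromosome 2, 60881521 to 60931610) had 1.85 and 2.14 FPKM in NT1_hp2, against 0.886 and 1.14 FPKM in the negative control. The NT1_hp2 libraries were above both controls, with mean levels 1.98-fold apart. The log2 difference of 0.58 (SE 0.162) was not called by limma-trend on log2(FPKM + 1), and the length and GC correction gave 0.31. On recovered reads, without the added 1 FPKM, limma-voom gave 1.03 and called it. A stretch of 5702 bases, 43.3% of the REL exon bases, also belongs to the annotated noncoding RNA AC010733.2 on the same strand, which was listed at 0 in all 4 libraries. How reads in shared stretches were assigned is not given, so the level of REL is uncertain. REL had 344 and 401 reads in NT1_hp2 and 168 and 188 in the negative control, over 13170 exon bases. In every library these were more reads than for RELB, which has 3035 exon bases. The rank of REL and its share of subunit mRNA thus rest on the length used.

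Shares within a library do not depend on the scaling between libraries. RELB took 11.1% and 12.7% of the summed FPKM of the 5 subunit mRNAs in NT1_hp2 replicates 2 and 3, against 8.17% and 7.70% in negative control replicates 1 and 3. REL took 3.87% and 4.53% in NT1_hp2 and 2.0% and 2.73% in the negative control. RELA took 45.5% and 43.4% in NT1_hp2 and 50.2% and 52.4% in the negative control. The sum of the 5 was 47.8 and 47.4 FPKM in NT1_hp2 and 44.3 and 41.6 FPKM in the negative control. RELA and NFKB2 together held the bulk of subunit mRNA in each library, and the ratio of RELB to RELA was 0.243 and 0.293 in NT1_hp2 and 0.163 and 0.147 in the negative control.

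**Figure D2:**
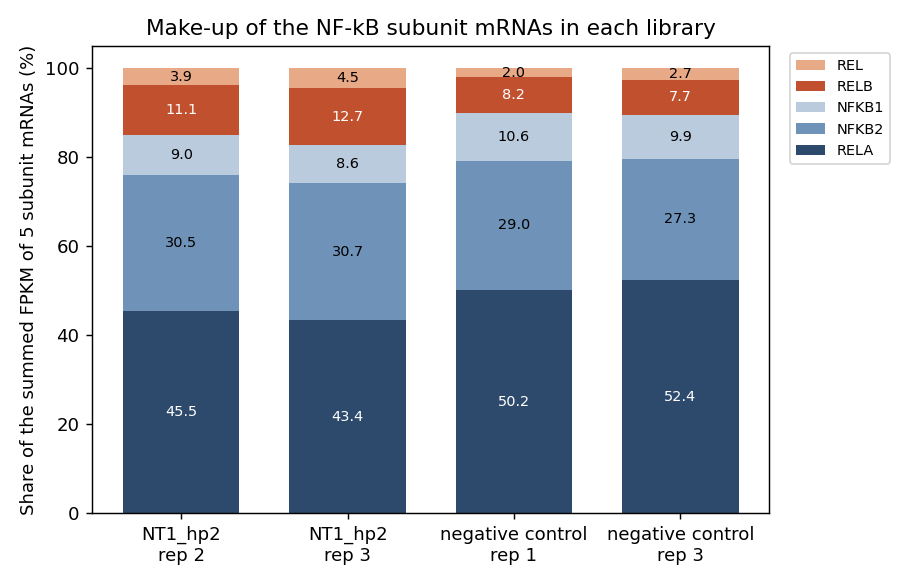
Share of each subunit mRNA (vertical axis, in percent of the summed FPKM of the 5) in each library, as stacked bars. The RELB and REL segments are larger in the NT1_hp2 libraries (11.1% and 12.7% for RELB) than in the negative control libraries (8.17% and 7.70%), and the RELA segment is smaller.

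NFKBIA, the inhibitor IκBα that is itself induced by NF-kB, was the most abundant of the 10 mRNAs. NFKBIA (ENSG00000100906, chromosome 14, 35401511 to 35404749) had 23.5 and 24.0 FPKM in NT1_hp2, against 23.9 and 21.4 FPKM in the negative control. The groups overlapped. The log2 difference was 0.06 (SE 0.0761), it was −0.01 without negative control replicate 3, and it was 0.25 after the length and GC correction. Its promoter, shown above, holds both the decamer and the letters seen in CXCL8.

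TNFAIP3 encodes A20, a ubiquitin-editing enzyme that ends NF-kB signalling. TNFAIP3 (ENSG00000118503, chromosome 6, 137867188 to 137883312) had 4.98 and 4.60 FPKM in NT1_hp2, against 2.64 and 2.71 FPKM in the negative control. Both NT1_hp2 values were above both control values, which differed by 0.0704 FPKM. These levels rested on 355 and 330 reads in NT1_hp2 and on 192 and 172 reads in the negative control. Counting alone gives a coefficient of variation of 7.22% and 7.62% in the controls, so their small gap is not read as a measure of spread. The log2 difference was 0.65 (SE 0.0869), 1.79-fold in mean FPKM, and it was 0.70 after the length and GC correction. Its 95 exon bases shared with the antisense RNA AL357060.1 make up 1.88% of its exons, and that RNA had 14 to 20 reads per library.

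BIRC3 encodes cIAP2, a ubiquitin ligase of TNF receptor complexes and an induced target of NF-kB. BIRC3 (ENSG00000023445, chromosome 11, 102317450 to 102339403) had 3.32 and 3.25 FPKM in NT1_hp2, against 2.04 and 2.30 FPKM in the negative control. Both NT1_hp2 libraries were higher. The log2 difference of 0.44 (SE 0.101) was not called, and it was 0.19 after the length and GC correction.

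TNFAIP2, a gene induced by tumour necrosis factor in endothelial and other cells, went the other way. TNFAIP2 (ENSG00000185215, chromosome 14, 103123442 to 103137439) had 12.3 and 11.5 FPKM in NT1_hp2, against 16.2 and 16.6 FPKM in the negative control. Both NT1_hp2 libraries were below both controls, at 72.4% of the control mean. The log2 difference of −0.44 (SE 0.0661) was −0.15 after the length and GC correction, where it was no longer called. At 62.0% GC, TNFAIP2 belongs to the tertile whose median was −0.24.

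CXCL8 encodes interleukin 8, a chemokine that attracts neutrophils. CXCL8 (ENSG00000169429, chromosome 4, 73740506 to 73743716) had 6.13 and 5.64 FPKM in NT1_hp2, against 1.04 and 1.23 FPKM in the negative control. Means ± SD were 5.89 ± 0.351 FPKM in NT1_hp2 and 1.13 ± 0.132 FPKM in the negative control (n = 2 each), 5.20-fold apart. These rested on 197 and 182 reads in NT1_hp2 and on 34 and 35 reads in the negative control, where counting alone gives a coefficient of variation of 17.1% and 16.9%.

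The log2 difference of CXCL8 was 1.69 on the log2(FPKM + 1) scale (SE 0.105), ranked 41 from the top of the 16362 tested genes. The added 1 FPKM compresses a gene at this level, and with 0.1 FPKM in its place the difference was 2.28. The length and GC correction gave 1.54, and with 1 library left out it was 1.63 to 1.76 by limma-trend on log2(FPKM + 1) and 2.25 to 2.52 by limma-voom on recovered reads. Relative to NFKBIA in the same library, CXCL8 was at 0.262 and 0.235 in NT1_hp2 and at 0.0434 and 0.0572 in the negative control.

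In order of mean level, NFKBIA and RELA came first and REL last in both groups. CXCL8 ranked 5 of 10 in NT1_hp2 and 9 of 10 in the negative control. In NT1_hp2 its values overlapped those of RELB, and in the negative control they overlapped those of REL, so neither pair of neighbours was separated by its spread. NFKBIA and RELA overlapped in the negative control, and in NT1_hp2 NFKBIA was above RELA in both libraries.

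**Figure D3:**
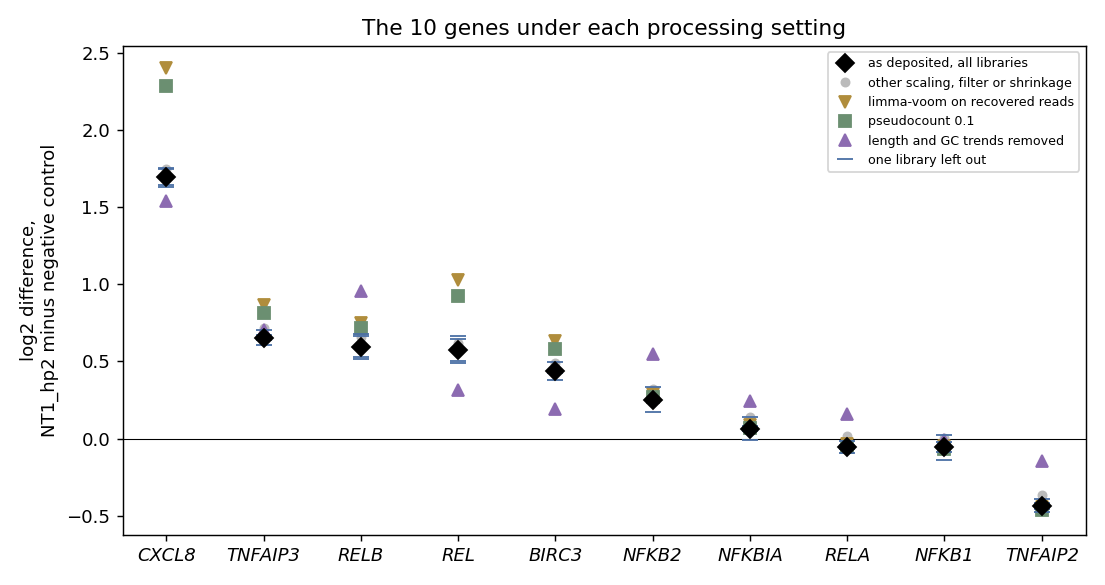
Log2 difference of each gene, NT1_hp2 minus negative control (vertical axis), under the deposited scaling and 13 alternatives, without the limma-voom fits that leave out a library. Within these, CXCL8 lies between 1.54 and 2.40, RELB and NFKB2 are highest after the length and GC correction (0.96 and 0.55), and TNFAIP2 is nearest to 0 there (−0.15).

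The rest of the NF-kB pathway was read from a textbook list of 88 further genes, of which 61 passed the filter. Of these 61, 6 were called higher and 7 lower in NT1_hp2, a share of 21.3% against the background of 13.9%, and 48 were not called. Their median log2 difference was −0.02, against −0.01 over all tested genes. All 7 called lower were in the highest GC tertile, and 5 of the 6 called higher were in the lowest. After the length and GC correction 2 of the 61 were called, both higher, namely IL32 and the TNF receptor family gene TNFRSF12A. That fit called 298 of all 16350 genes. With library totals 11 of 62 tested were called higher and 7 lower, where 2859 of all 16397 tested genes were called. By limma-trend none of the 61 was called with any 1 of the 4 libraries left out, although 20 to 28 had an unadjusted p below 0.05. Those fits leave 1 library in a group, so calls by limma-voom on recovered reads under the same omissions are not read. Of the 10 genes described above, limma-trend called 0 in each of those fits, with 5 to 6 at an unadjusted p below 0.05. Under the same omissions limma-voom gave log2 differences of 2.25 to 2.52 for CXCL8 and −0.49 to −0.40 for TNFAIP2.

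**Figure D4:**
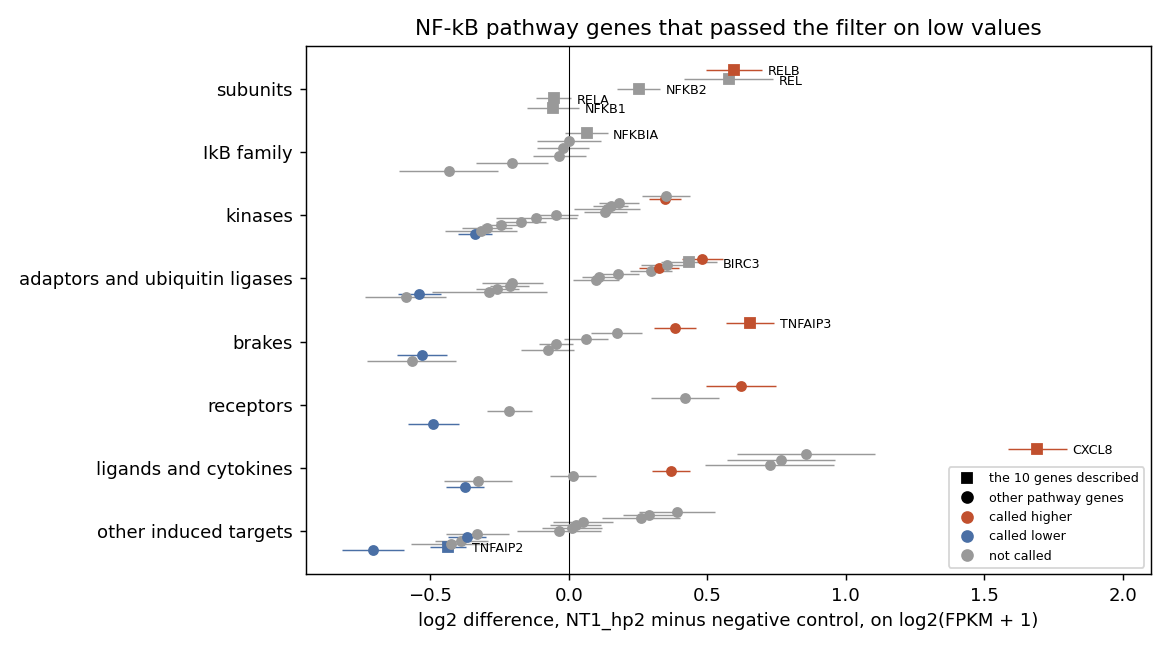
Log2 difference, NT1_hp2 minus negative control, on log2(FPKM + 1) (horizontal axis) for pathway genes that passed the filter, by role. Whiskers are the SE of the limma-trend fit, squares are the 10 genes described and circles the other pathway genes. CXCL8, at 1.69, lies farthest to the right, and every role has genes on both sides of 0.

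The share called by role is set beside the 13.9% of all tested genes. It was 15.4% for kinases, 23.1% for adaptors and ligases, 28.6% for brakes, 50% for receptors, 28.6% for ligands and 16.7% for other targets. Each role held few tested genes, so nothing is read from these shares. None of the 5 other IkB family genes was called by limma-trend. The most abundant, NFKBIB (IκBβ), had 9.42 and 10.2 FPKM in NT1_hp2 and 10.9 and 9.28 FPKM in the negative control, which overlapped. Of 13 kinases and their partners 1 was called in each direction. They were the paired adaptors of the kinase TAK1. TAB2 rose to 27.1 and 27.2 FPKM in NT1_hp2, against 20.9 and 21.4 FPKM in the negative control (log2 difference 0.35, SE 0.0592, limma-trend adjusted p = 0.0362). TAB1 fell to 9.45 and 9.39 FPKM in NT1_hp2, against 12.3 and 12.02 FPKM in the negative control (−0.34, SE 0.0622, limma-trend adjusted p = 0.0396). After the length and GC correction these differences were 0.19 and −0.06, with neither called. The catalytic kinase gene IKBKB, named after its values were seen, was at −0.05 without passing.

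Among 13 tested adaptors and ubiquitin ligases, 2 rose and 1 fell. TRAF5, an adaptor of TNF receptor family members, averaged 6.39 ± 0.120 FPKM in NT1_hp2 and 4.29 ± 0.0871 FPKM in the negative control, and the ligase XIAP averaged 11.01 ± 0.616 FPKM in NT1_hp2 and 8.58 ± 0.163 FPKM in the negative control. SHARPIN, a subunit of the ligase complex that builds linear ubiquitin chains, averaged 12.3 ± 0.00983 FPKM in NT1_hp2 and 18.3 ± 1.57 FPKM in the negative control (SD, n = 2 each). The limma-trend adjusted p-values were 0.0340 for TRAF5, 0.0482 for XIAP and 0.0340 for SHARPIN. After the length and GC correction none of the 3 was called, at 0.34, 0.10 and −0.15 on the log2 scale. Of 7 tested brakes besides TNFAIP3, OTULIN, which removes linear ubiquitin chains, rose by a log2 difference of 0.38 (limma-trend adjusted p = 0.0416), and ZC3H12A, a ribonuclease that degrades cytokine mRNAs, fell by 0.53 (limma-trend adjusted p = 0.0367). They were at 0.26 and −0.21 after the correction.

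Of 13 receptor genes 4 passed the filter. IL1RAP, the shared chain of interleukin 1 family receptors, averaged 2.68 ± 0.286 FPKM in NT1_hp2 and 1.39 ± 0.0471 FPKM in the negative control (log2 difference 0.62, SE 0.125, limma-trend adjusted p = 0.0432). LTBR, the lymphotoxin receptor that feeds the slower branch, averaged 12.6 ± 1.22 FPKM in NT1_hp2 and 18.1 ± 1.16 FPKM in the negative control (−0.49, SE 0.0916, limma-trend adjusted p = 0.0404). They were at 0.43 and −0.33 after the correction, where neither was called. Of receptor genes named after their values were seen, the CXCL8 receptors CXCR1 and CXCR2 had 0 to 8 reads per library, and TLR2 and TLR4 were listed at 0 in all 4.

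Of 7 further ligand and cytokine genes that passed the filter, 1 rose and 1 fell. IL32, a cytokine gene, rose to 8.89 and 8.87 FPKM in NT1_hp2, against 6.82 and 6.47 FPKM in the negative control, and was called both as deposited (log2 difference 0.37, limma-trend adjusted p = 0.0397) and after the length and GC correction (0.65, limma-trend adjusted p = 0.0377). CXCL16 fell to 6.54 and 6.76 FPKM in NT1_hp2, against 8.80 and 9.03 FPKM in the negative control (−0.37, limma-trend adjusted p = 0.0384). After the correction CXCL16 was at −0.13 without passing.

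CXCL1, CXCL2, CXCL3 and CXCL5 lie beyond CXCL8 on chromosome 4, between 73869393 and 74099293, and were named after their values were seen. CXCL2 had 74 and 54 reads in NT1_hp2 and 36 and 20 in the negative control, at 3.49 and 2.54 FPKM and at 1.67 and 1.06 FPKM, a log2 difference of 0.77 that was not called. CXCL1 had 22 and 18 reads in NT1_hp2 and 16 and 10 in the negative control, and CXCL3 had 21 and 16 in NT1_hp2 and 21 and 15 in the negative control. CXCL5 was listed at 0 in all 4 libraries. CXCL8 was thus the most abundant of these 5 neighbours in NT1_hp2, and in the negative control its level overlapped that of CXCL2.

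Several cytokines that set off or accompany NF-kB activity had few reads, and those given in this paragraph were named after their values were seen. TNF had 18 and 11 reads in NT1_hp2 and 6 and 4 in the negative control, IL6 had 0 and 3 reads in NT1_hp2 and 3 and 2 in the negative control, and CSF2 had none. IL1A had 62 and 38 reads in NT1_hp2 and 13 and 13 in the negative control. It passed the filter only through NT1_hp2, and its log2 difference of 0.85 (SE 0.249) was not called. CXCL10 likewise passed only through NT1_hp2 and was not called, at 0.73. CCL2 and LIF had more reads, and neither was called. CCL2 had 105 and 108 reads in NT1_hp2 and 104 and 96 in the negative control, at a log2 difference of 0.01. LIF had 264 and 242 reads in NT1_hp2 and 379 and 261 in the negative control, at −0.33.

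Of 12 tested targets of other kinds, 2 fell and none rose. BCL2L1, which encodes the survival protein BCL-xL, fell to 4.10 and 5.16 FPKM in NT1_hp2, against 7.96 and 8.33 FPKM in the negative control (log2 difference −0.71, SE 0.112, limma-trend adjusted p = 0.0353). TAPBP, which encodes tapasin of antigen loading, fell to 8.92 and 9.54 FPKM in NT1_hp2, against 12.3 and 12.1 FPKM in the negative control (−0.37, limma-trend adjusted p = 0.0396). They were at −0.46 and −0.14 after the length and GC correction, without passing. SOD2 and CFLAR, at 0.02 and 0.01 on the log2 scale, and IER3 and PLAU, at 0.29 and 0.39, were not called. Nor were GADD45B, EFNA1 and HLA-B, at −0.43, −0.39 and −0.33. These further targets were named after their values were seen. Of the 12 tested targets, 6 lay above 0 and 6 below.

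The genes most like CXCL8 were found by the distance between centred log2(FPKM + 1) profiles over the 4 libraries, among 12065 protein-coding genes with a mean of at least 1 FPKM. The nearest was ATF3, a stress-induced transcription factor, at a distance of 0.32. ATF3 had 70.7 and 63.9 FPKM in NT1_hp2 and 24.6 and 25.8 FPKM in the negative control. It was followed by C11orf96 (0.48), DDIT3 (0.54), ANKRD1 (0.58), TNFRSF9 (0.62) and SLC7A11 (0.66). TNFRSF9, a TNF receptor family gene best known in T cells, had 3.66 and 3.69 FPKM in NT1_hp2 and 1.01 and 1.42 FPKM in the negative control. With 0.1 FPKM added in place of 1, 3 of these 6 were again among the 6 nearest, and the order changed. IL1A was then nearest, at a distance of 0.76, and ATF3 was at 0.88. DDIT3, ANKRD1 and SLC7A11 were no longer among the 6. In mean FPKM the groups were 2.67-fold apart for ATF3 and 5.20-fold apart for CXCL8.

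**Figure D5:**
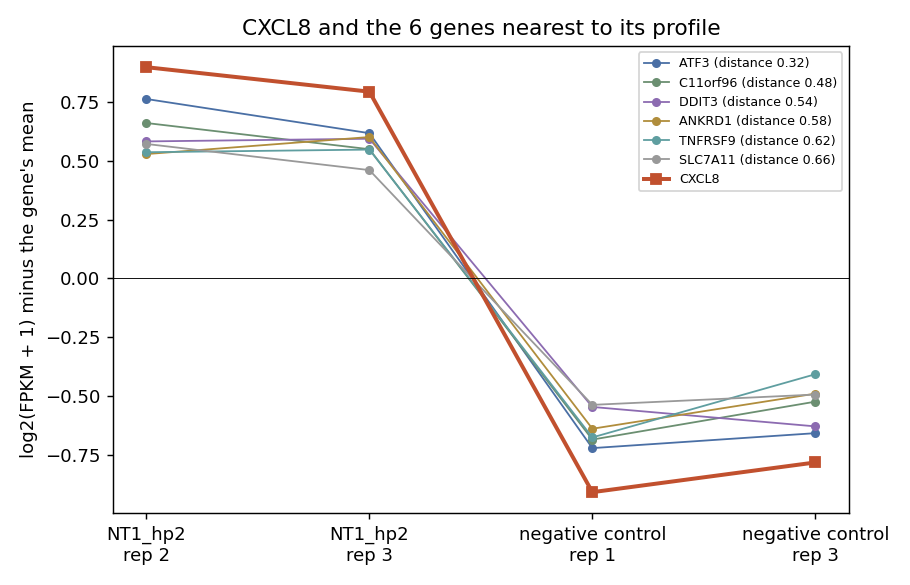
log2(FPKM + 1) minus the mean of each gene (vertical axis) in each library for CXCL8 and the 6 genes nearest to it. All 7 lie above 0 in both NT1_hp2 libraries and below 0 in both negative control libraries, and CXCL8 spans the widest range.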

How the data were processed

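Each library came with a table of 1 value per Ensembl gene, deposited by the authors and read here as FPKM because of how the values behave, since the headers carry no unit. The build was GRCh38.p12 per the submitters' processing notes. Aligner, counter and scaling: not given in the sources used here. GENCODE 29 held 58735 of the 58736 features. The other row was named EGFP, at 4578 and 4437 FPKM in NT1_hp2 and 6143 and 5616 FPKM in the negative control. Values times summed exon length were whole multiples of 1 step per library (100% within 0.01), and those multiples were used as reads.

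The filter kept genes reaching 1 FPKM in 2 libraries or more. Groups were compared on log2(FPKM + 1), which understates changes of low genes, by limma-trend with robust shrinkage (limma 3.58.1, R 4.3.3). P-values were Benjamini-Hochberg adjusted over all tested genes and called below 0.05. The fit was tested on simulated data. The library kit named in the labels does not keep strand, so reads of genes that overlap antisense are mixed.

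The 10 genes and the pathway lists were chosen with earlier results of these data known. Named genes are the 10, up to 4 called genes of each role list or else its most abundant gene, and the 6 nearest to CXCL8. Cell markers come from fixed lists, and the further pathway genes marked as such in the text were named after their values were seen. Alternatives were other scalings, limma-voom, pseudocount, filter, gene type, shrinkage, length and GC trends (mgcv 1.9.3) and omission of each library.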

Additional observations from a re-analysis of the deposited data

How the results depend on the processing

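As deposited, 2278 genes were called over the whole table, and 13 of the 61 further pathway genes. Calls of higher genes made up 35.9% of these, 53.6% with library totals and 46.9% with limma-voom. Counts over the whole table and over the pathway genes were 5582 and 33 with limma-voom, 4716 and 33 among protein-coding genes alone, 298 and 2 after removal of length and GC trends, and 0 and 0 without the filter, where 6778 genes and 32 pathway genes had an unadjusted p below 0.05. With each library left out in turn, limma-trend called 0 to 1 genes and 0 pathway genes, with 3315 to 5836 and 20 to 28 at an unadjusted p below 0.05. Limma-voom, added after seeing the data, called 681 to 3980 genes and 1 to 22 pathway genes there. Without NT1_hp2 replicate 3 it called 3933 genes. Of the 10 genes, 3 were called higher and 1 lower as deposited, and 5 and 1 with library totals (NFKB2 and BIRC3 besides). With limma-voom or protein-coding genes alone 6 were called higher and 1 lower (REL, NFKB2 and BIRC3 besides). Those settings called 5582 of 16362 and 4716 of 12149 genes over the whole table. A pseudocount of 0.1 gave 4 and 1 (BIRC3 besides), where 2414 of 16362 genes were called. After the length and GC correction 4 were called higher and 0 lower, and without the filter 0 were called. With library totals 2859 of 16397 genes were called over the whole table. CXCL8, TNFAIP3, RELB, REL, BIRC3, NFKB2 and TNFAIP2 kept their direction under all 13 alternative settings, and RELA, NFKB1 and NFKBIA did not. Of the 6 genes nearest to CXCL8, 3 remained with a pseudocount of 0.1, and the nearest was IL1A in place of ATF3. The share of promoters with a kappaB match was 11.3% for the decamer, 0.461% for GGAATTTCC and 58.7% for GGG and CC with any 5 bases between. The causes of these differences were not tested. Fits with a library left out also held fewer samples. No paired analysis was possible because the groups share only replicate number 3. Depth limits CXCL8 in the negative control (34 and 35 reads) and most cytokine genes.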
